A study of Saccharomyces cerevisiae with 24 samples.

Results

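Yeast ribosome biogenesis genes are described here through the 63 measured genes whose standard name on the array's platform table is UTP, NOP, NOC, RRP, RIX, ENP, NSA or NUG followed by digits alone, out of 5449 genes in all. The rule uses names and not measured values, but it was chosen with earlier results of these data known. Each member was read by 1 probe set. The study grew Saccharomyces cerevisiae in chemostats and measured RNA on 1 Affymetrix array per culture, with 3 biological replicates in each of 8 groups. The 4 strains were a reference labelled wild type, snf1Δ, tor1Δ and the double deletion snf1Δtor1Δ, and no further allele or strain background is given in the sources used here. Each strain was grown with glucose limiting (C-lim, 10 g/L glucose) and with ammonium sulfate limiting (N-lim, 1 g/L). All groups shared aerobic growth at 30 °C, pH 5.0 and a dilution rate of 0.1 per h, and were harvested at steady state, where the growth rate of a chemostat equals its dilution rate. The genotype label of the single SNF1 deletion is spelled sfn1Δ, and its titles and the design text give snf1Δ.

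Ribosomes begin as a long precursor rRNA that RNA polymerase I makes in the nucleolus. The UTP-A and UTP-B complexes and the U3 snoRNP assemble on its leading end into the small-subunit processome, while other factors build the large-subunit particle and the exosome, a barrel of non-catalytic subunits joined by exonucleases, trims the RNA. In yeast the genes for these factors are transcribed together, are high in growing cells, and are regulated by the TORC1 kinase complex and the kinase Sch9 through activators such as Sfp1 and repressors such as Dot6, Tod6 and Stb3. Snf1, the AMP-activated protein kinase of yeast, is needed when glucose is scarce, and Tor1 is a kinase subunit of TORC1 that its paralog Tor2 can replace.

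The deletions were visible on the arrays. SNF1 read 8.75 and 8.90 (log2 group means) in the reference in C-lim and N-lim and sat at the arrays' floor in each of the 4 snf1Δ and snf1Δtor1Δ groups, which is at least 53.7-fold and 59.8-fold lower. TOR1 read 6.94 and 7.86 in the reference and sat at the floor in each of the 4 tor1Δ and snf1Δtor1Δ groups, which is at least 15.4-fold and 29.1-fold lower. The floor means a group mean under log2 3, and these folds are taken to that level. Array medians ran from 7.80 to 7.99 and arrays of one group correlated at 0.993 to 0.999. The arrays read the RNA of a whole culture, so fewer cells with a transcript and less of it per cell cannot be told apart.

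All 63 genes were expressed above the floor in every group, with group means from 5.40 (RRP36 in tor1Δ, N-lim) to 11.25 (NOP58 in snf1Δ, C-lim) on the log2 scale. Signals of different probe sets were not compared with each other. Between arrays of one group the 63 genes spread more than most: their pooled within-group SD had a median of 0.145 (lowest 0.056, highest 0.29) against 0.10 over the 5112 genes above the floor, and 54 of the 63 lay above that median. The genes also moved together within groups. Over the 24 arrays the deviations of 2 members from their group means had a median correlation of 0.48, against 0.026 for pairs of all genes above the floor. This is a description, and which arrays were labelled or normalized together is not known here.

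Averaged over the 63 genes, the 3 arrays read 8.01, 8.13 and 7.92 in the reference in C-lim and 7.96, 7.83 and 7.99 in N-lim. The tor1Δ arrays read 8.27, 7.84 and 8.05 in C-lim and 8.03, 8.001 and 8.05 in N-lim. The strains without SNF1 were higher: snf1Δ read 8.37, 8.20 and 8.37 in C-lim and 8.17, 8.17 and 8.25 in N-lim, and snf1Δtor1Δ read 8.25, 8.17 and 8.34 and then 8.25, 8.21 and 8.25. In N-lim all 6 arrays without SNF1 lay above all 6 arrays with it, while in C-lim the highest tor1Δ array overlapped the strains without SNF1. The tor1Δ cultures in C-lim stood apart from each other: in culture 07 all 63 genes lay above their group mean and in culture 08 only 2 of 63 did. The 83 other assembly factors listed for comparison did the same, with 83 and 0 above their group mean. Counts that rest on the tor1Δ C-lim group are therefore given with and without each of these cultures.

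**Figure D1:**
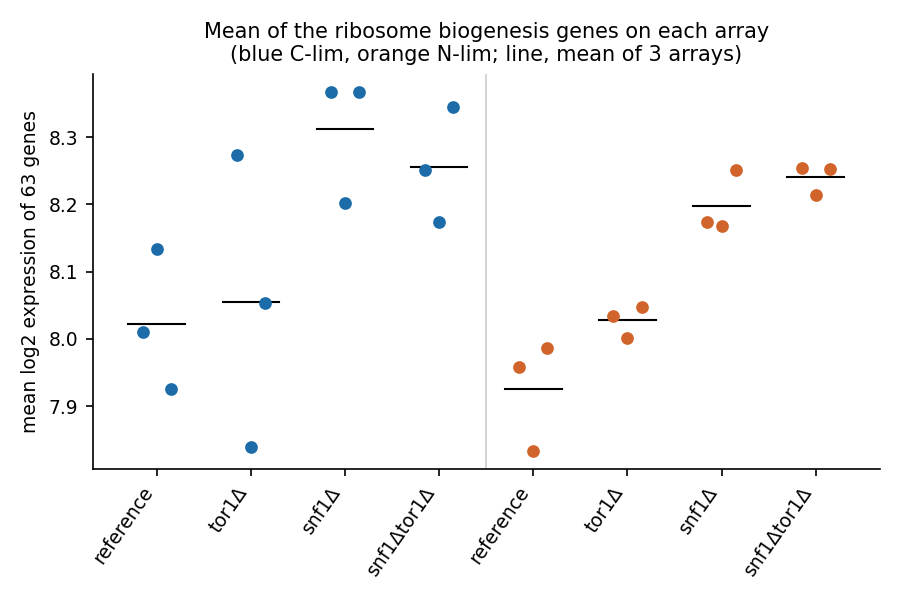
Mean log2 expression of the 63 genes (vertical axis) on each of the 24 arrays, by strain (horizontal axis), blue for C-lim and orange for N-lim, with a line at the mean of 3 arrays. The arrays without SNF1 lie between 8.17 and 8.37, and the tor1Δ arrays in C-lim run from 7.84 to 8.27.

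Loss of SNF1 went with higher transcript levels of many ribosome biogenesis genes in both media. In C-lim, 32 of the 63 genes (50.8%) rose in snf1Δ against the reference and none fell, while 40.5% of all genes rose and 21.6% fell. In N-lim 28 of 63 (44.4%) rose and none fell, while 14.1% of all genes rose and 17.0% fell. The median change of the 63 genes was 0.31 in C-lim and 0.27 in N-lim on the log2 scale, against 0.10 and -0.0042 over all genes. Calls are limma's, with p-values adjusted over all 5449 genes and a threshold of 0.05. When the arrays of the compared groups alone were fitted, the C-lim count was 20, and that 31.7% was below the 34.0% of all genes that rose in the same fit. The C-lim excess over all genes also depended on single reference arrays. Without reference C-lim culture 11 the count was 23 (36.5%, where 37.5% of all genes rose). It was 25 without culture 09 (39.7%, where 37.5% rose) and 41 without culture 10 (65.1%, where 40.9% rose). The N-lim count was 18 without reference culture 10, where 11% of all genes rose, and 17 without snf1Δ culture 11, where 10.4% did.

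**Figure D2:**
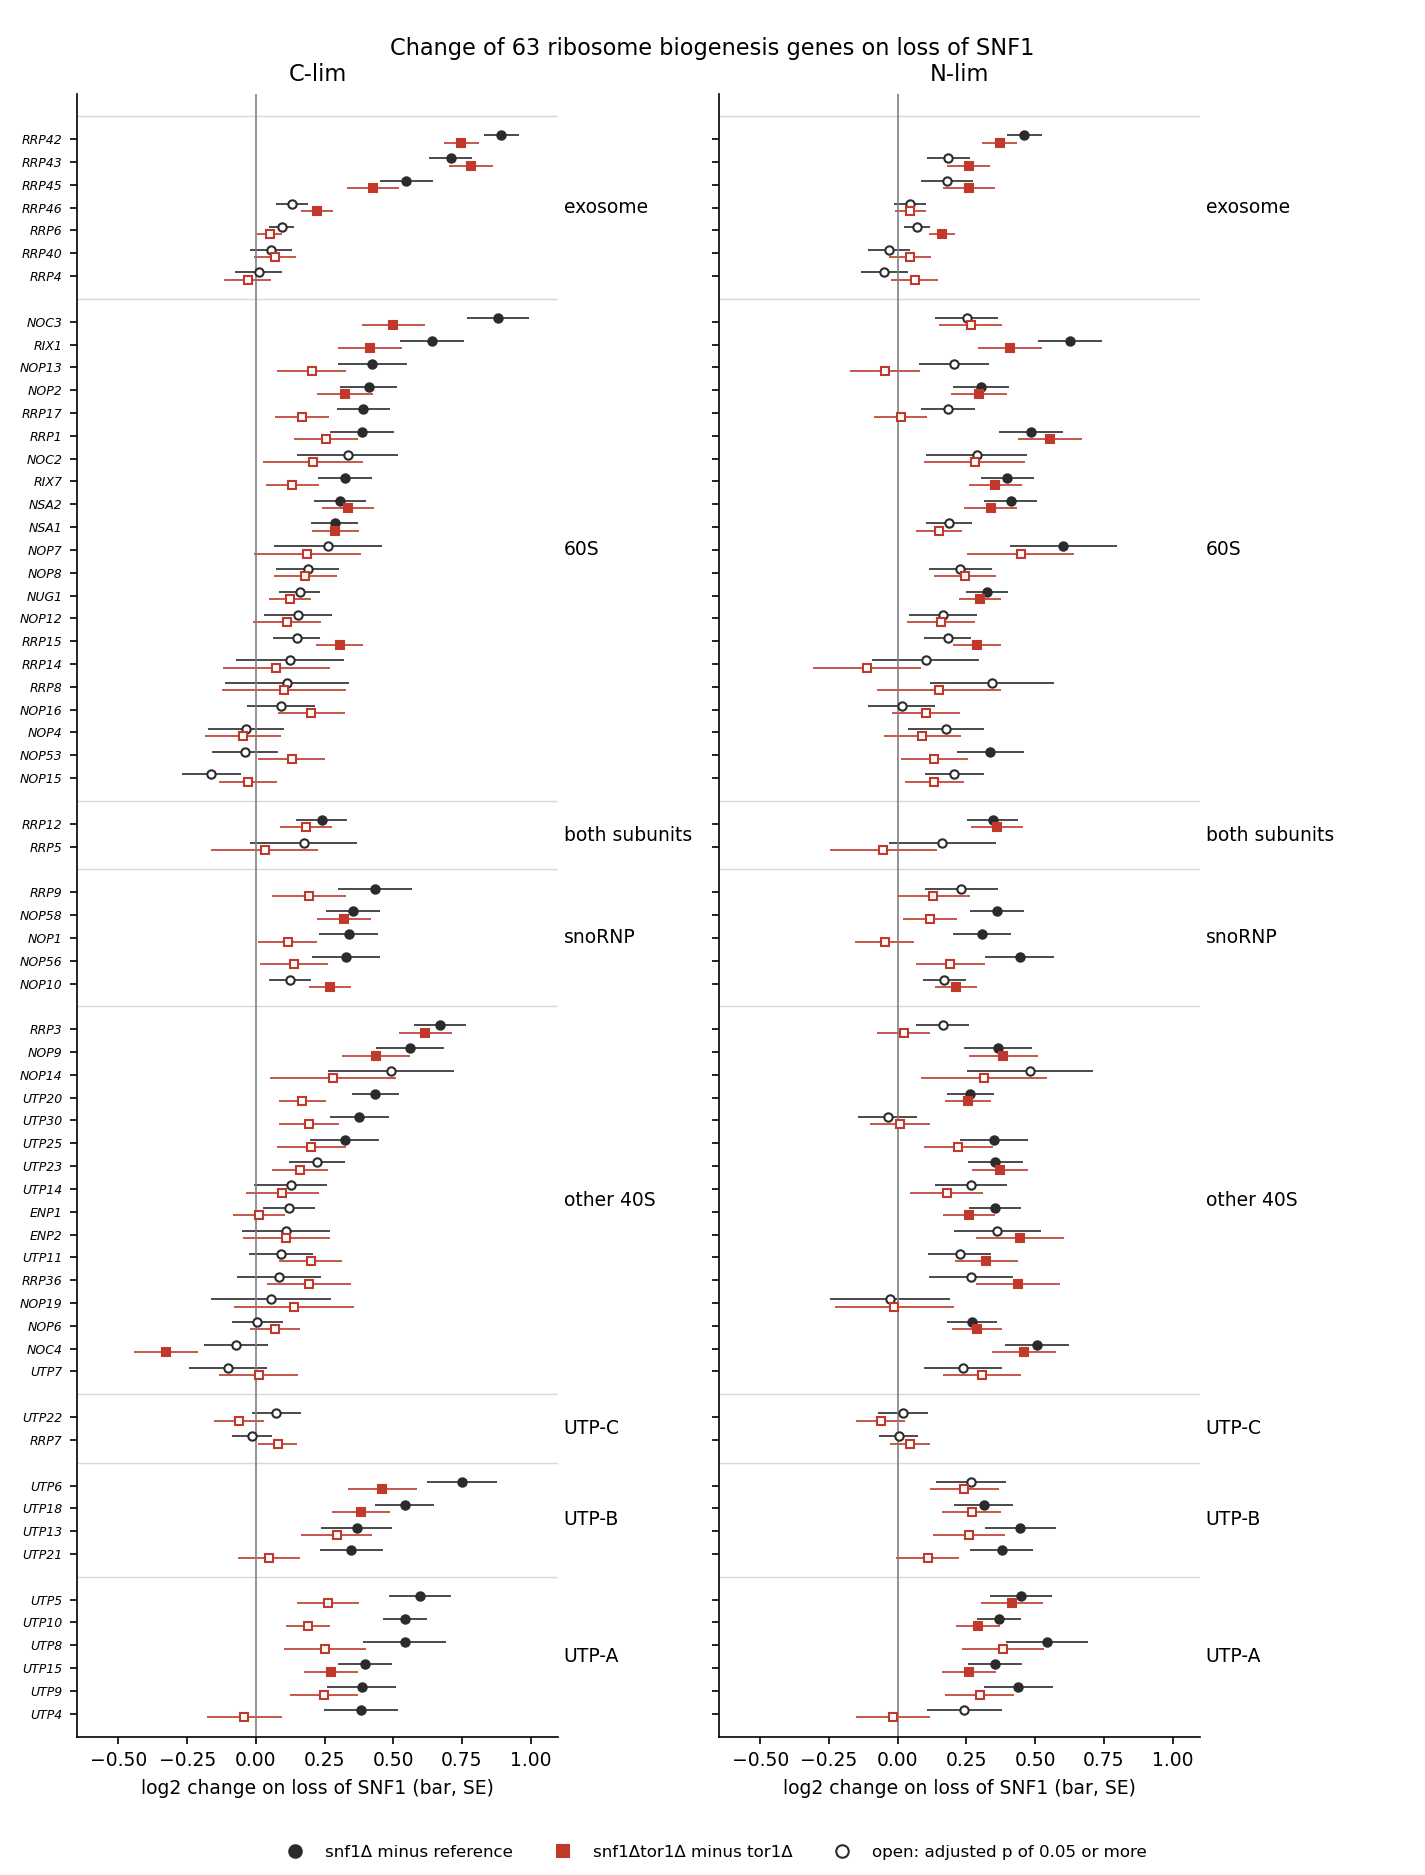
Log2 change (horizontal axis, bars are SE) of each of the 63 genes on loss of SNF1 in C-lim (left) and N-lim (right), grouped by role, for snf1Δ minus reference (circles) and snf1Δtor1Δ minus tor1Δ (squares), with open symbols for an adjusted p of 0.05 or more. Most points lie right of 0, the largest in C-lim being RRP42 at 0.89, while RRP4, RRP40, UTP22 and RRP7 lie near 0.

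The UTP-A complex binds the leading end of the precursor and helps polymerase I transcribe it. All 6 of its genes among the 63 rose in snf1Δ in C-lim and 5 of 6 in N-lim, with median changes of 0.47 and 0.40. UTP5 read 7.51, 7.93 and 7.56 in the reference in C-lim and 8.35, 8.23 and 8.20 in snf1Δ. In N-lim it read 7.82, 7.81 and 7.67 in the reference and 8.13, 8.24 and 8.27 in snf1Δ. The snf1Δ arrays lay above the reference arrays in both media, by 0.60 ± 0.11 (SE, adjusted p = 0.000165) and 0.45 ± 0.11 (SE, adjusted p = 0.00546). UTP10, a large scaffold of the complex, rose by 0.54 (adjusted p = 1.21e-05) in C-lim and 0.37 (adjusted p = 0.00195) in N-lim. UTP4 was the exception in N-lim, at 0.24 (adjusted p = 0.191). Its rise of 0.38 (adjusted p = 0.0201) in C-lim was lost without reference culture 11 or snf1Δ culture 12 (adjusted p = 0.173 and 0.0761) and with the compared groups alone in the fit (adjusted p = 0.129). UTP8 had the largest change of these genes in N-lim, 0.54 (adjusted p = 0.0105), and rose by 0.54 (adjusted p = 0.00430) in C-lim.

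UTP-B is the complex that joins next. All 4 of its genes among the 63 rose in C-lim and 3 of 4 in N-lim, with medians of 0.45 and 0.35. The rule on names leaves out other UTP-B genes, such as DIP2. UTP6 read 7.53, 7.93 and 7.29 in the reference and 8.37, 8.22 and 8.43 in snf1Δ in C-lim, a rise of 0.75 ± 0.13 (SE, adjusted p = 5.13e-05) with no overlap. In N-lim UTP6 changed by 0.27 (adjusted p = 0.123), which missed the threshold, whereas UTP18 rose by 0.31 (adjusted p = 0.0334), a call lost without reference culture 10 or 11 or snf1Δ culture 10 or 11 (adjusted p from 0.0543 to 0.140). UTP13 had the largest N-lim change of these 4 genes, 0.45 (adjusted p = 0.0140), and rose by 0.37 (adjusted p = 0.0204) in C-lim, and UTP21 rose by 0.35 (adjusted p = 0.0130) and 0.38 (adjusted p = 0.0169). Without reference C-lim culture 09 or 11 neither UTP13 nor UTP21 was called there (adjusted p from 0.0712 to 0.0960), nor with the compared groups alone in the fit (adjusted p = 0.0523 and 0.110), which left 2 of the 4 genes. In N-lim 1 of the 4 was left without reference culture 09 or 10 or snf1Δ culture 11. Neither of the 2 UTP-C genes among the 63 passed the test: UTP22 changed by 0.075 ± 0.090 (SE) in C-lim and 0.020 ± 0.090 (SE) in N-lim, and RRP7 by -0.015 ± 0.072 (SE) and 0.0029 ± 0.072 (SE). UTP-C also binds casein kinase 2 and ties assembly to ribosomal protein genes.

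Box C/D and H/ACA snoRNPs guide methylation and pseudouridylation of rRNA. Of 5 snoRNP proteins, 4 rose in C-lim and 3 in N-lim, with medians of 0.34 and 0.31. RRP9, a U3 snoRNP protein, had the largest C-lim change, 0.43 (adjusted p = 0.00868), a call lost without reference culture 11 (adjusted p = 0.0748) and with the compared groups alone in the fit (adjusted p = 0.105). NOP58, a core box C/D protein, read 10.82, 11.05 and 10.81 in the reference and 11.26, 11.24 and 11.24 in snf1Δ in C-lim, a rise of 0.35 ± 0.10 (SE, adjusted p = 0.00430). In N-lim it read 10.82, 10.79 and 11.02 in the reference and 11.17, 11.26 and 11.30 in snf1Δ, a rise of 0.36 ± 0.10 (SE, adjusted p = 0.00921). Every snf1Δ array lay above every reference array in both media. Its partner NOP56 rose by 0.33 (adjusted p = 0.0287) and 0.44 (adjusted p = 0.0114), the first of which was lost with array medians subtracted (adjusted p = 0.0523), with the compared groups alone in the fit (adjusted p = 0.174) and without reference culture 11 or snf1Δ culture 10 or 12 (adjusted p from 0.0683 to 0.246). NOP1, the fibrillarin methyltransferase, rose by 0.34 (adjusted p = 0.0104) and 0.31 (adjusted p = 0.0364). Its C-lim call was lost without reference culture 09 (adjusted p = 0.0575), and its N-lim call without any 1 of the 6 arrays compared (adjusted p from 0.0511 to 0.110). NOP10, the small H/ACA protein, was the one of the 5 that passed in neither medium, at 0.12 (adjusted p = 0.175) and 0.17 (adjusted p = 0.108). With equal culture numbers paired, it was called in N-lim (adjusted p = 0.0388).

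The 16 other small-subunit factors split more, with 5 raised in C-lim and 7 in N-lim (medians 0.12 and 0.27). These are 31.2% and 43.8% of the 16, and the first is below the 40.5% of all genes. UTP25, a small-subunit processome protein, rose by 0.32 (adjusted p = 0.0319) and 0.35 (adjusted p = 0.0406), and the N-lim call was lost without any 1 of the 6 arrays compared (adjusted p from 0.0552 to 0.143). Its C-lim call was lost with array medians subtracted (adjusted p = 0.0594), with quantile normalization repeated (adjusted p = 0.111), with the compared groups alone in the fit (adjusted p = 0.0988) and without reference culture 09 or 11 or snf1Δ culture 12 (adjusted p from 0.0646 to 0.193). RRP3, a DEAD-box helicase for small-subunit rRNA, read 7.41, 7.76 and 7.47 in the reference and 8.21, 8.19 and 8.24 in snf1Δ in C-lim, a rise of 0.67 ± 0.10 (SE, adjusted p = 8.00e-06). In N-lim RRP3 read 7.66, 7.68 and 7.56 in the reference and 7.82, 7.81 and 7.76 in snf1Δ, and its change of 0.16 (adjusted p = 0.217) did not pass. NOP9, an RNA-binding protein of the early particle, rose in both media by 0.56 (adjusted p = 0.000741) and 0.36 (adjusted p = 0.0334), and the N-lim call was lost without reference culture 11 or snf1Δ culture 09 or 11 (adjusted p from 0.0771 to 0.166). NOC4 was the reverse case: it read 7.39, 7.61 and 7.27 in the reference and 7.47, 7.34 and 7.24 in snf1Δ in C-lim, which overlap (-0.073, adjusted p = 0.631). In N-lim the reference arrays read 6.66, 6.73 and 6.34 and the snf1Δ arrays 7.04, 7.09 and 7.12, a rise of 0.51 ± 0.12 (SE, adjusted p = 0.00285). Its binding partner NOP14 changed by 0.49 ± 0.23 (SE) and 0.48 ± 0.23 (SE) and passed in neither medium, with adjusted p of 0.0710 and 0.125.

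Among 21 large-subunit factors, 9 rose in C-lim (42.9%, near the 40.5% of all genes) and 8 in N-lim (38.1%, where 14.1% of all genes rose), with medians of 0.26 and 0.25. RIX1, of the complex that checks the particle before it leaves the nucleus, read 6.21, 6.60 and 6.20 in the reference in C-lim against 6.98, 6.95 and 7.0 in snf1Δ. In N-lim it read 6.23, 6.19 and 6.29 against 6.80, 6.87 and 6.92. The groups did not overlap in either medium, and the rises were nearly the same, 0.64 ± 0.12 (SE, adjusted p = 0.000111) and 0.63 ± 0.12 (SE, adjusted p = 0.000476). NOC3, which acts with NOC2 on early large-subunit particles and also in DNA replication, read 6.26, 6.64 and 6.03 in the reference and 7.27, 7.22 and 7.09 in snf1Δ in C-lim, a rise of 0.88 ± 0.11 (SE, adjusted p = 2.43e-06). In N-lim its change was 0.25 (adjusted p = 0.106) and did not pass, and NOC2 passed in neither medium (0.33 and 0.29). NOP7, the yeast pescadillo, had the opposite order, with 0.26 (adjusted p = 0.260) in C-lim and 0.60 (adjusted p = 0.0249) in N-lim, and the N-lim call was lost without reference culture 10 or snf1Δ culture 09 or 11 (adjusted p from 0.0550 to 0.143).

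The largest rise in C-lim was in the exosome, whose subunits differed among themselves. RRP42, a subunit of the hexameric ring, read 8.27, 8.46 and 8.34 in the reference and 9.32, 9.26 and 9.17 in snf1Δ in C-lim, a 1.86-fold rise. On the log2 scale that is 0.89 ± 0.064 (SE, adjusted p = 1.26e-09), with no overlap. In N-lim it read 8.57, 8.47 and 8.51 in the reference and 8.89, 9.09 and 8.94 in snf1Δ, a rise of 0.46 ± 0.064 (SE, adjusted p = 2.43e-05). The ring subunits RRP43 and RRP45 rose in C-lim by 0.71 (adjusted p = 3.97e-07) and 0.55 (adjusted p = 7.00e-05), and their N-lim changes of 0.18 and 0.18 did not pass. RRP46, the remaining ring subunit among the 63, changed by 0.13 ± 0.058 (SE) and 0.046 ± 0.058 (SE). The cap subunits were not called: RRP4 changed by 0.010 ± 0.086 (SE) in C-lim and -0.050 ± 0.086 (SE) in N-lim. RRP40 changed by 0.056 ± 0.077 (SE) and -0.031 ± 0.077 (SE). RRP6, the nuclear exonuclease, changed by 0.094 ± 0.047 (SE) and 0.069 ± 0.047 (SE) and did not pass. In counts, 3 of 7 exosome genes rose in C-lim (42.9%) and 1 of 7 in N-lim (14.3%). These shares are near the 40.5% and 14.1% of all genes. Of the 2 factors that serve both subunits, RRP12, which helps export the particles, rose in each medium (0.24 and 0.34, adjusted p = 0.0343 and 0.00937) and RRP5 did not pass in either. The RRP12 call in C-lim was lost with array medians subtracted (adjusted p = 0.0743) and without reference culture 09 or 11 or snf1Δ culture 10 or 12 (adjusted p from 0.0822 to 0.140).

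The counts by role also moved with single arrays. In C-lim the snoRNP count fell from 4 to 2 without reference culture 11, and the exosome count rose from 3 to 5 without reference culture 10 or without snf1Δtor1Δ N-lim culture 02, an array that enters through the spread alone. With the compared groups alone in the fit, the C-lim counts were 2 for snoRNP proteins, 3 for other small-subunit factors and 5 for large-subunit factors. In N-lim UTP-A had 3 calls without snf1Δ culture 11. The other small-subunit factors had 3 without reference culture 10 or snf1Δ culture 09 and 4 without snf1Δ culture 11, and the large-subunit factors had 5 without any 1 of these 3 cultures.

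**Figure D3:**
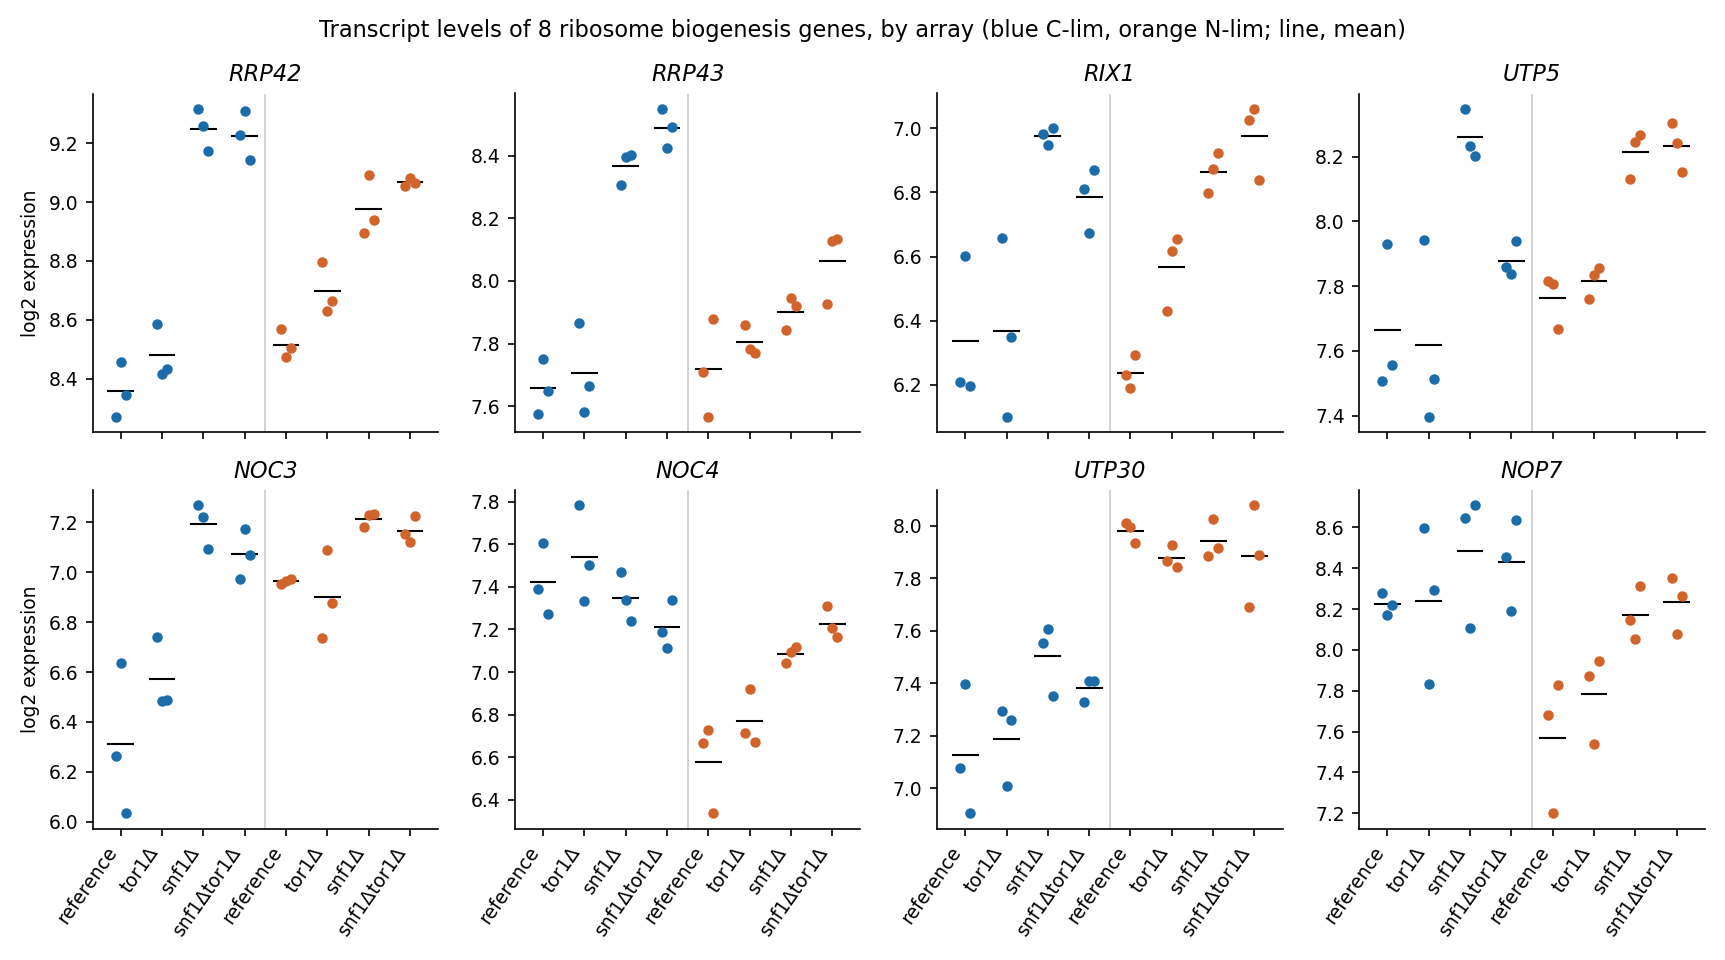
Log2 expression (vertical axis, one scale per gene) of 8 of the genes on every array, by strain, blue for C-lim and orange for N-lim, with a line at the group mean. RRP42, RRP43 and NOC3 are raised in C-lim in both strains without SNF1, RIX1 in both media, and NOC4 falls from C-lim to N-lim in the reference and tor1Δ.

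The same step, loss of SNF1, was measured again in cells that already lacked TOR1, on arrays that the first comparison did not use. Between snf1Δtor1Δ and tor1Δ, 17 genes rose and 1 fell in C-lim, where 37.3% of all genes rose and 18.7% fell, and 25 rose and none fell in N-lim, where 21.7% rose and 11.8% fell. The C-lim share of risen members was below that of all genes, and the N-lim share above it. The gene that fell was NOC4, with a change of -0.33 ± 0.12 (SE, adjusted p = 0.0231), and that call was lost without tor1Δ culture 07 or snf1Δtor1Δ culture 01 or 02 (adjusted p from 0.0596 to 0.146) and with the compared groups alone in the fit (adjusted p = 0.0856). The C-lim count depended on the tor1Δ cultures that stood apart: 33 rose without culture 07 (52.4%, above the 37.0% of all genes), and 13 rose and 1 fell without culture 08 (20.6% rose, below the 32.6% of all genes). The N-lim count dropped to 11 with array medians subtracted, a share of 17.5% that is near the 14.7% of all genes under that scaling. It was 15 and 14 without snf1Δtor1Δ cultures 01 and 03, where 18.4% and 19.0% of all genes rose, and 16 without tor1Δ culture 09 or culture 11, where 18.9% and 17.0% did. In C-lim 14 genes were called in both strain backgrounds, 43.8% of the 32 and 82.4% of the 17, and in N-lim 17 were, 60.7% of the 28 and 68.0% of the 25. Shared calls, here and below, were counted for the 63 genes alone, so no share of all genes stands beside them. The C-lim overlap was 28 genes (77.8% and 84.8% of the calls) without tor1Δ culture 07 and 10 genes (29.4% and 76.9%) without culture 08. Over the 63 genes the changes in the 2 backgrounds had a Pearson r of 0.80 in C-lim (0.80 and 0.75 without culture 07 and 08) and 0.72 in N-lim, a description across genes that share arrays within each comparison.

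Across these 4 comparisons of SNF1 loss, 47 of the 63 genes had a positive change in every one, and 47 and 37 did without tor1Δ C-lim culture 07 and 08. Of all genes, 40.5% and 37.3% were called higher in the C-lim comparisons and 14.1% and 21.7% in those of N-lim. How many of all genes were positive or called in all 4 was not counted. Called higher in all 4 were 6 genes: RRP42, RIX1, NOP2 (an rRNA cytosine methyltransferase of the large subunit), NOP9, NSA2 (a large-subunit maturation factor) and UTP15 of UTP-A. RRP42 in snf1Δtor1Δ read 9.23, 9.31 and 9.14 in C-lim and 9.05, 9.08 and 9.07 in N-lim. In tor1Δ it read 8.59, 8.42 and 8.43 in C-lim and 8.80, 8.63 and 8.66 in N-lim. The groups did not overlap, and the rises were 0.75 ± 0.064 (SE, adjusted p = 1.63e-08) and 0.37 ± 0.064 (SE, adjusted p = 0.000226). RIX1 rose by 0.42 (adjusted p = 0.00539) and 0.41 (adjusted p = 0.0117), and the N-lim call was lost without tor1Δ culture 09 (adjusted p = 0.0579). In C-lim the tor1Δ arrays read 6.66, 6.10 and 6.35 against 6.81, 6.67 and 6.87 in the double deletion, with the highest of the first just under the lowest of the second. RRP42 was called in all 4 comparisons under each alternative that could be fitted and with each of the 24 arrays left out. RIX1, NOP2, NOP9, NSA2 and UTP15 each lost at least 1 of their 4 calls in some of these, and the UTP15 rise of 0.26 (adjusted p = 0.0498) in N-lim was lost in most. Another 10 genes were called in 3 of the 4 comparisons, 18 in 2, 12 in 1 and 17 in none. Without tor1Δ C-lim culture 07, 15 genes were called in all 4 and 15 in none, and without culture 08 the counts were 5 and 16.

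Set against the reference instead, snf1Δtor1Δ had 22 genes higher and none lower in C-lim, where 42.7% of all genes were higher and 18.8% lower. In N-lim 35 were higher and none lower, where 23.9% of all genes were higher and 16.4% lower. The C-lim share of higher members, 34.9%, was below that of all genes, and the N-lim share, 55.6%, was above it. These comparisons share the reference arrays with those of snf1Δ and are given side by side. RRP42 rose by 0.87 (adjusted p = 1.80e-09) in C-lim and 0.55 (adjusted p = 2.30e-06) in N-lim, and RRP43 by 0.83 (adjusted p = 5.57e-08) and 0.34 (adjusted p = 0.00191). RIX1 rose by 0.45 (adjusted p = 0.00267) and 0.74 (adjusted p = 6.94e-05). In N-lim the double deletion also held UTP23, which helps release the snR30 snoRNA, at 8.79, 8.71 and 8.63 against 8.15, 7.99 and 8.13 in the reference, a rise of 0.62 ± 0.10 (SE, adjusted p = 9.65e-05). ENP2, a small-subunit processome protein, rose by 0.60 (adjusted p = 0.00593). With array medians subtracted the C-lim split was 16 higher and 1 lower, and with quantile normalization repeated 18 and 1, NOC4 being the lower one. The higher shares, 25.4% and 28.6%, were below the 34.6% and 36.9% of all genes under those scalings. Of all genes 27.7% and 21.9% were lower there.

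Whether the change on loss of SNF1 differed between the media was tested as an interaction. For snf1Δ, 8 of 63 genes differed: NOC4 rose more in N-lim and 7 rose more in C-lim, while 16.2% and 31.0% of all genes differed in those directions. The members' shares of both were below those of all genes. NOC3 had a difference of -0.63 ± 0.16 (SE, adjusted p = 0.00347), RRP43 of -0.52 ± 0.11 (SE, adjusted p = 0.000790) and RRP3 of -0.51 ± 0.14 (SE, adjusted p = 0.00476), all from larger rises in C-lim. NOC4 had 0.58 ± 0.16 (SE, adjusted p = 0.00730). With array medians subtracted or quantile normalization repeated, the split became 4 toward N-lim and 5 toward C-lim: NOP6, NOP15 and NOP53 joined NOC4, and the calls of UTP6 and UTP30 were lost. These shares of 6.35% and 7.94% stayed below those of all genes, 19.5% and 25.7% with medians subtracted and 18.1% and 27.4% with quantile normalization repeated. The count was 5 without reference C-lim culture 09, reference N-lim culture 09, snf1Δ C-lim culture 10 or snf1Δ N-lim culture 09. For snf1Δtor1Δ, 7 genes differed toward N-lim and 4 toward C-lim, where 17.9% and 28.8% of all genes did, and NOC4 again had the largest difference, 0.86 (adjusted p = 0.000309). Without snf1Δtor1Δ C-lim culture 02 the split was 3 and 4. Of the genes called in snf1Δ, 21 rose in both media, 65.6% of the 32 in C-lim and 75.0% of the 28 in N-lim, a count not made over all genes.

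Deletion of TOR1 alone changed none of the 63 genes past the threshold in either medium. In C-lim no gene was called, as against 0.606% of all genes higher and 0.459% lower, and 2 genes had an unadjusted p under 0.05 (NOC3 at 0.26 and UTP10 at 0.19). In N-lim no gene was called, as against 0.716% higher and 2.20% lower, and 7 had an unadjusted p under 0.05. The same counts of 0 were given by limma with a trended, robust prior. Changes ranged from -0.15 to 0.26 in C-lim and from -0.14 to 0.33 in N-lim. Over the 63 genes the 95% intervals of the change reached from -0.49 to 0.58 in C-lim and from -0.46 to 0.71 in N-lim, so rises of the size of the snf1Δ medians lay inside some of these intervals. The counts stayed at 0 without tor1Δ culture 07 or 08. Without reference culture 10, NOC3 was called in C-lim at 0.42.

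In N-lim the small tor1Δ changes were mostly positive. The median over the 63 genes was 0.11, against -0.0040 over all genes, and 51 of 63 changes were above 0. The tor1Δ arrays lay wholly above the reference arrays for 18 genes and wholly below for 1, UTP30, where 8.41% and 12.7% of all genes did so. RIX1 had the largest of these changes: the reference arrays read 6.23, 6.19 and 6.29 and the tor1Δ arrays 6.43, 6.62 and 6.65, a difference of 0.33 ± 0.12 (SE, adjusted p = 0.177). In C-lim only UTP20 was separated without overlap in the upward direction and no gene in the downward one, where 10.0% and 3.62% of all genes were, and the median was 0.033 against 0.032 over all genes. Whether the tor1Δ change differed between the media gave no call (0 genes with an unadjusted p under 0.05, lowest adjusted p 0.454), where 0.275% and 0.697% of all genes were called, and none without tor1Δ C-lim culture 07 or 08. The difference between the changes in snf1Δ and in tor1Δ was not itself tested.

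**Figure D4:**
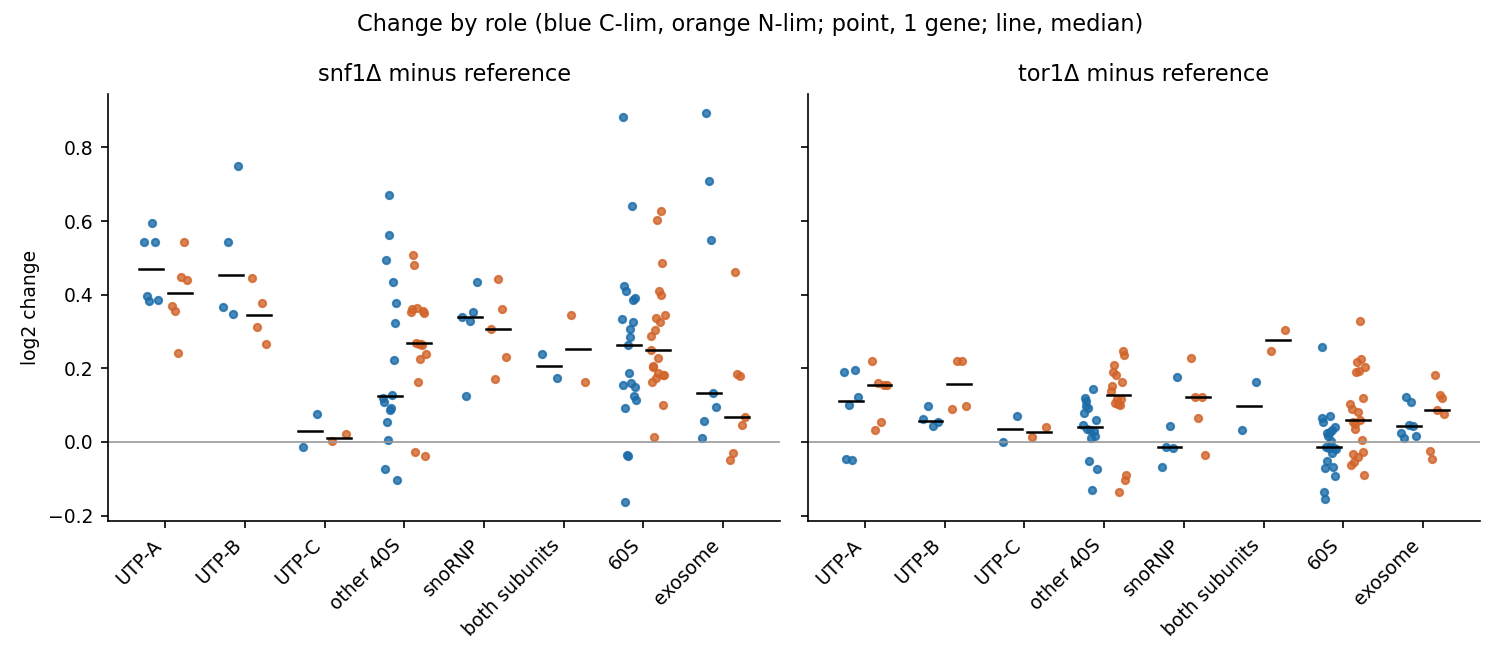
Log2 change of each gene (points) in snf1Δ (left) and tor1Δ (right) against the reference, by role (horizontal axis), blue for C-lim and orange for N-lim, with a line at the median of the role. In snf1Δ the UTP-A and UTP-B medians are 0.47 and 0.45 in C-lim and the UTP-C median is 0.030, while the tor1Δ changes lie between -0.15 and 0.33.

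Adding the TOR1 deletion to snf1Δ moved few genes. In C-lim 2 genes were lower in snf1Δtor1Δ than in snf1Δ and none higher, where 6.44% of all genes were lower and 10.8% higher. UTP5 read 8.35, 8.23 and 8.20 in snf1Δ and 7.86, 7.84 and 7.94 in snf1Δtor1Δ, a change without overlap of -0.38 ± 0.11 (SE, adjusted p = 0.0259). RRP17, an exonuclease of large-subunit processing, read 7.49, 7.35 and 7.35 and 7.10, 6.96 and 7.19, a difference of -0.32 ± 0.10 (SE, adjusted p = 0.0332). Both calls were lost without snf1Δ culture 10 or 11 or snf1Δtor1Δ culture 01 or 02, and the RRP17 call also without snf1Δ culture 12. In N-lim RRP6 alone was higher (0.17 ± 0.047 (SE, adjusted p = 0.0292)) and none was lower, where 7.51% and 3.10% of all genes were, and the RRP6 call was lost with array medians subtracted (adjusted p = 0.213), with quantile normalization repeated (a change of 0.087, adjusted p = 0.352), without dim genes (0.0543), with the trended robust prior (0.0641), with the compared groups alone in the fit (0.161) and without any 1 of snf1Δ cultures 09, 10 and 11 or snf1Δtor1Δ cultures 01 and 03. The genetic interaction, the change on double deletion beyond the sum of both single changes, gave no call in C-lim (4 genes with an unadjusted p under 0.05, lowest adjusted p 0.0809), where 2.88% of all genes were above and 2.86% below additivity. It gave none in N-lim either (1 gene unadjusted, lowest adjusted p 0.305), where 0.587% and 0.110% were. Without reference culture 10, 4 genes were called below additivity in C-lim (NOC3, UTP10, UTP5 and UTP21). Their share of the members, 6.35%, was near the 5.34% of all genes called below additivity in the same fit. Without tor1Δ culture 08 UTP10 alone was called below (1.59%, where 2.68% of all genes were), and none was called without culture 07.

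Between the media at the same dilution rate, the ribosome biogenesis genes of the reference strain were called lower in N-lim about as often as all genes and called higher less often. In the reference 16 genes (25.4%) were lower in N-lim and 7 (11.1%) higher, where 25.7% of all genes were lower and 41.5% higher. The median change was -0.098 against 0.078 over all genes. With array medians subtracted the split was 26 lower (41.3%) and 3 higher (4.76%), where 37.1% and 33.9% of all genes were, and with quantile normalization repeated it was 23 and 4 (36.5% and 6.35%), where 28.6% and 38.4% were. The first of these scalings moved the median over all genes from 0.078 to -0.028. By role, 7 of 21 large-subunit factors (33.3%) and 6 of 16 other small-subunit factors (37.5%) were lower. Of the exosome genes 3 of 7 were higher (42.9%, near the 41.5% of all genes) and none lower. The 7 large-subunit factors became 12 with array medians subtracted and 11 with equal culture numbers paired, and the 3 exosome genes became 1 with array medians subtracted or without C-lim culture 09.

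NOC4 had the largest fall: the reference arrays read 7.39, 7.61 and 7.27 in C-lim and 6.66, 6.73 and 6.34 in N-lim, a change of -0.85 ± 0.12 (SE, adjusted p = 3.62e-06). ENP1, which acts in small-subunit particles up to their export, read 7.88, 8.19 and 7.84 in C-lim and 7.40, 7.38 and 7.31 in N-lim, a change of -0.61 ± 0.094 (SE, adjusted p = 1.45e-05). RRP36, a small-subunit processome protein, read 6.10, 6.35 and 5.93 and then 5.60, 5.33 and 5.67, a change of -0.59 ± 0.15 (SE, adjusted p = 0.00229). None of the 3 genes overlapped between media. NUG1, a nucleolar GTPase of the large subunit, changed by -0.47 (adjusted p = 1.97e-05) and NOP7 by -0.66 (adjusted p = 0.00624). NOP15, an RNA-binding large-subunit factor, changed by -0.55 (adjusted p = 0.000180) and RRP1 by -0.45 (adjusted p = 0.00198), all lower in N-lim.

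In the other direction, UTP30, a non-essential processome protein related to a ribosomal protein, read 7.08, 7.40 and 6.90 in C-lim and 8.01, 7.99 and 7.93 in N-lim in the reference, a rise of 0.85 ± 0.11 (SE, adjusted p = 1.40e-06). NOC3 read 6.26, 6.64 and 6.03 in C-lim and 6.95, 6.96 and 6.97 in N-lim, a rise of 0.65 ± 0.11 (SE, adjusted p = 5.80e-05). In both genes every N-lim array lay above every C-lim array. RRP45 rose by 0.37 (adjusted p = 0.00234) and RRP4 by 0.27 (adjusted p = 0.0104). Smaller rises in RRP42, UTP10 and UTP22 (0.16, 0.21 and 0.21) were lost with array medians subtracted, with adjusted p of 0.458, 0.253 and 0.349. In UTP-C the members moved apart, UTP22 by 0.21 (adjusted p = 0.0497) and RRP7 by -0.17 (adjusted p = 0.0459). With cultures of equal number paired, neither UTP-C call held (adjusted p = 0.0662 and 0.0687).

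Of the 16 genes called lower in the reference, 7 were also called lower in snf1Δ, 10 in tor1Δ and 5 in snf1Δtor1Δ. In snf1Δ 14 genes were lower in N-lim and 2 higher, where 23.0% of all genes were lower and 32.4% higher, and the 14 became 9 without snf1Δ C-lim culture 10. In tor1Δ 10 were lower and 7 higher, where 27.5% and 37.4% of all genes were. That split turned with single cultures: it was 6 lower and 13 higher without tor1Δ C-lim culture 07, where 26.2% and 37.1% of all genes were, and 20 lower and 3 higher without culture 08, where 26.9% and 33.8% were. In snf1Δtor1Δ 11 were lower and 7 higher, where 23.2% and 35.3% were. After subtraction of array medians tor1Δ had 14 lower (22.2%) and 5 higher (7.94%), where 30.0% and 34.0% of all genes were. Under the same scaling snf1Δtor1Δ had 15 lower (23.8%) and 4 higher (6.35%), where 27.6% and 29.3% were. Both directions were called less often among the members than among all genes. Over the 63 genes the change between media in the reference had an r of 0.93 with that in tor1Δ (0.89 and 0.92 without tor1Δ C-lim culture 07 and 08), 0.67 with snf1Δ and 0.60 with snf1Δtor1Δ, a description of comparisons that share no arrays.

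**Figure D5:**
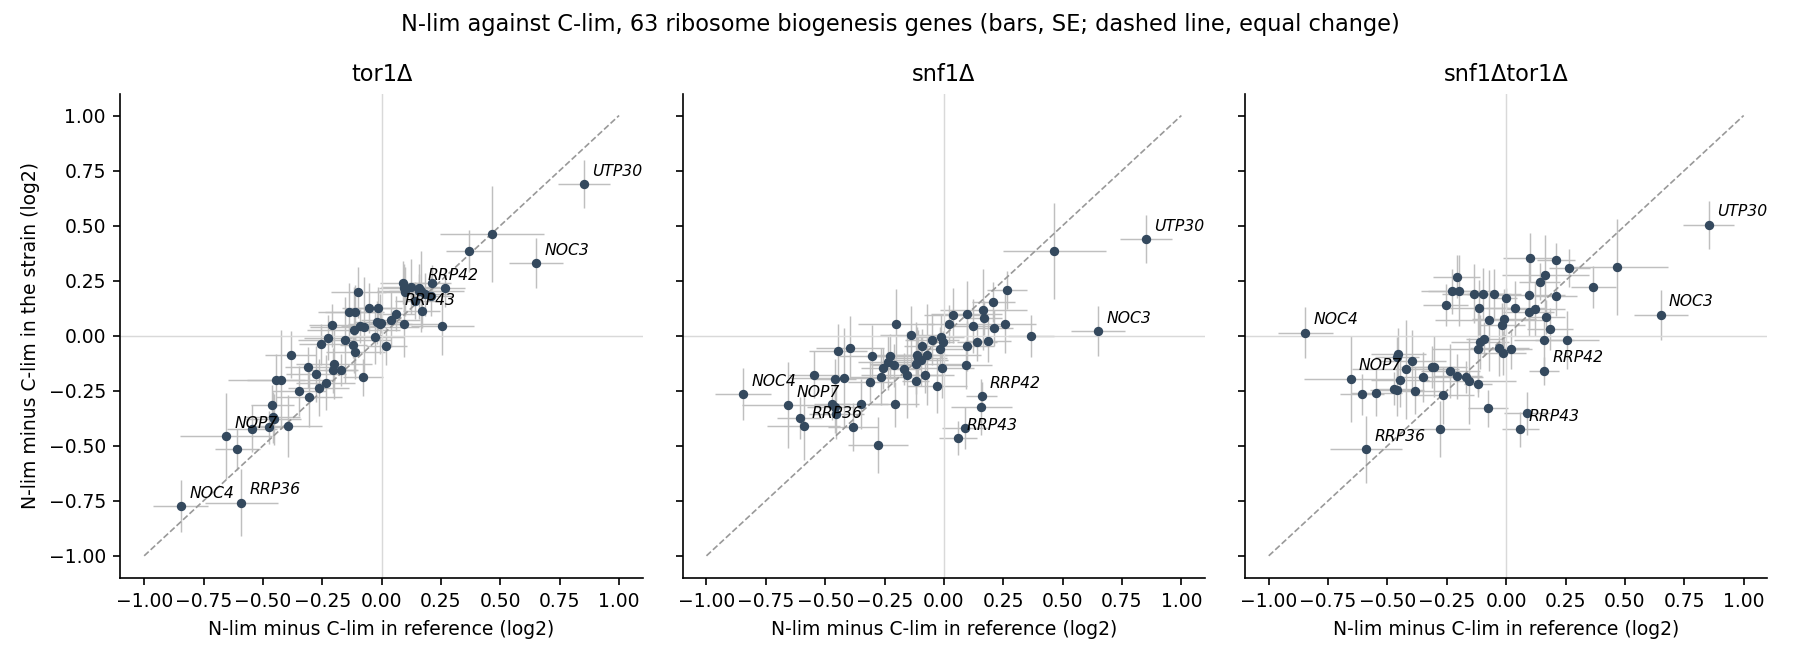
Log2 difference between N-lim and C-lim for each of the 63 genes in the reference (horizontal axis) against tor1Δ, snf1Δ and snf1Δtor1Δ (vertical axes), with SE bars and a dashed line of equal change. NOC4 lies at -0.85 in the reference and -0.77 in tor1Δ but at 0.013 in snf1Δtor1Δ, and RRP43 lies at 0.060 in the reference and -0.46 in snf1Δ.

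Called lower in N-lim in all 4 strains were ENP1, NUG1 and RRP36, and NOP13, a large-subunit factor, joined them without tor1Δ C-lim culture 08. NOP13 changed by -0.50 (adjusted p = 0.00264) in snf1Δ and -0.42 (adjusted p = 0.00765) in snf1Δtor1Δ. In snf1Δtor1Δ NSA1, a factor of early large-subunit particles, changed by -0.33 (adjusted p = 0.00247). RIX7, an ATPase of large-subunit maturation, rose there by 0.27 (adjusted p = 0.0243), a call lost with array medians subtracted (adjusted p = 0.0807), with quantile normalization repeated (adjusted p = 0.0979), and without C-lim culture 02 or N-lim culture 01 (adjusted p = 0.0921 and 0.0752). NUG1 changed by -0.47 in the reference, -0.31 in snf1Δ, -0.42 in tor1Δ and -0.24 in snf1Δtor1Δ. The ENP1 call in snf1Δtor1Δ was lost without culture 01 of its N-lim group (adjusted p = 0.0784). The RRP36 call in snf1Δ was lost with the compared groups alone in the fit (adjusted p = 0.0670) and without 4 of the 6 cultures one at a time (adjusted p from 0.0541 to 0.144). UTP30 and RRP4 were called higher in all 4 strains, UTP30 by 0.85, 0.44, 0.69 and 0.50 in the same order. For RRP4 the call was lost with array medians subtracted in the reference, snf1Δ and tor1Δ (adjusted p = 0.101, 0.114 and 0.0792). With single arrays left out it was also lost in snf1Δ (adjusted p from 0.0515 to 0.191), in tor1Δ (from 0.0648 to 0.121) and, without C-lim culture 09, in the reference (0.0637).

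Of the exosome ring genes, RRP42, RRP43 and RRP46 were called lower in N-lim in both strains without SNF1. RRP45 was called in neither of these strains. RRP42 read 9.32, 9.26 and 9.17 in C-lim and 8.89, 9.09 and 8.94 in N-lim in snf1Δ, a change of -0.27 ± 0.064 (SE, adjusted p = 0.00133). RRP43 read 8.30, 8.39 and 8.40 in C-lim and 7.84, 7.94 and 7.92 in N-lim, a change of -0.46 ± 0.079 (SE, adjusted p = 6.24e-05). Every N-lim array lay below every C-lim array for both genes. In snf1Δtor1Δ RRP43 changed by -0.42 (adjusted p = 0.000149). RRP42 changed by -0.16 (adjusted p = 0.0406), a call that did not hold with equal culture numbers paired (adjusted p = 0.0542) and was lost without 5 of the 6 cultures one at a time. In the reference and tor1Δ, RRP43 changed by 0.060 ± 0.079 (SE) and 0.10 ± 0.079 (SE) and was not called. RRP3 had the same order, with -0.42 (adjusted p = 0.00108) in snf1Δ and -0.35 (adjusted p = 0.00393) in snf1Δtor1Δ against 0.088 (adjusted p = 0.443) in the reference. RRP7 in snf1Δtor1Δ, at -0.19 (adjusted p = 0.0319), also lost its call when paired (adjusted p = 0.0516).

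NOC4 and its chromosomal neighbour RRP15, a large-subunit factor, differed between comparisons. In snf1Δ against the reference RRP15 changed by 0.15 ± 0.087 (SE) in C-lim and 0.18 ± 0.087 (SE) in N-lim and was not called. RRP15 changed by 0.020 ± 0.087 (SE) between media in the reference, where NOC4 changed by -0.85. The other neighbouring pair among the 63, UTP9 and RIX1, rose together: UTP9, of UTP-A, by 0.38 (adjusted p = 0.0119) in C-lim and 0.44 (adjusted p = 0.0120) in N-lim. The UTP9 calls were lost without reference C-lim culture 11 (adjusted p = 0.103), in C-lim also with the compared groups alone in the fit (adjusted p = 0.133), and without snf1Δ N-lim culture 11 (adjusted p = 0.0595). Neighbours were taken from RefSeq's table of assembly R64.

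Assembly factors with other names were counted by the same test. In snf1Δ in C-lim, 15 of 35 other small-subunit factors, 19 of 48 other large-subunit factors and 13 of 16 exosome and snoRNP partners were higher, and none of them was lower. The first shares, 42.9% and 39.6%, are near the 40.5% of all genes, and the third, 81.2%, is above it. These counts ran from 9 to 19, 11 to 28 and 7 to 14 over the alternatives, lowest without reference culture 09 or with the compared groups alone for the first, without reference culture 11 for the second, and with the compared groups alone or culture numbers as a block for the third (8 without reference culture 11). DIP2, a UTP-B protein, rose by 0.69 (adjusted p = 1.32e-05), and URB1, a nucleolar large-subunit factor, by 0.75 (adjusted p = 5.47e-05). In N-lim 9, 20 and 7 of these lists were higher (25.7%, 41.7% and 43.8%, where 14.1% of all genes were), with 5 to 16, 11 to 29 and 1 to 7 over the alternatives. The first fell to 5 without any 1 of reference cultures 09 and 10 or snf1Δ cultures 09, 10 and 11, the second to between 11 and 13 without reference culture 10 or 11 or snf1Δ culture 11, and the third to between 1 and 4 without 5 of the 6 arrays compared. Without tor1Δ C-lim culture 07 the first was 14. AIR2 alone was lower (-0.40, adjusted p = 0.0201), a call lost without any 1 of reference cultures 10 and 11 or snf1Δ cultures 09 and 11. ESF1, a small-subunit factor, rose by 0.71 (adjusted p = 0.00701) there, and changed by -1.49 (adjusted p = 9.05e-07) from C-lim to N-lim in the reference. DIS3, the catalytic exosome subunit, rose in snf1Δ by 0.45 (adjusted p = 2.56e-06) in C-lim.

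Of 18 regulators of these genes, 14 were higher (77.8%) and 2 lower (11.1%) in N-lim than in C-lim in the reference, where 41.5% and 25.7% of all genes were. SCH9, the TORC1 target kinase, rose by 0.89 ± 0.060 (SE, adjusted p = 2.19e-10) and SFP1 by 0.41 ± 0.071 (SE, adjusted p = 5.45e-05). STB3 rose by 0.86 (adjusted p = 3.95e-06). TOD6 changed by -0.84 ± 0.090 (SE, adjusted p = 1.41e-07), and CRF1, a corepressor of ribosomal protein genes, was at the floor in N-lim and at least 12.4-fold higher in C-lim. In snf1Δ in C-lim 8 regulators were higher and 4 lower, shares of 44.4% and 22.2% that are near the 40.5% and 21.6% of all genes. The 8 fell to 5 with array medians subtracted or without reference culture 10, to 4 without snf1Δ culture 10 and to 2 with the compared groups alone. SCH9 rose by 0.39 (adjusted p = 1.86e-05) and KOG1, a TORC1 subunit, by 0.46 (adjusted p = 0.000177), while DOT6 changed by -0.53 (adjusted p = 0.000260) and TOD6 by -0.47 (adjusted p = 0.000177). CRF1 read 6.63 in the reference and 6.33 in tor1Δ in C-lim and lay at the floor in both C-lim strains without SNF1, at least 12.4-fold lower than the reference. TAP42, a phosphatase partner in the TOR pathway, was the other regulator that fell (-0.27, adjusted p = 0.00512). In snf1Δ in N-lim 1 regulator was higher (HMO1, 0.17) and 4 lower (SCH9, TOR1, TAP42 and GCN4), where 14.1% and 17.0% of all genes were, and the 4 became 1 without reference culture 10 or snf1Δ culture 10 or 11 and 2 without most other single arrays. The SCH9 and GCN4 calls there, at -0.16 (adjusted p = 0.0494) and -0.15 (adjusted p = 0.0495), were lost with array medians subtracted. In tor1Δ in C-lim RAP1 rose by 0.30 (adjusted p = 0.0254), which was also lost with array medians subtracted, and TOR1 itself was the other regulator called.

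Of the 63 genes, 11 were called in none of the 19 comparisons: RRP5, RRP40, NOC2, NOP4, NOP12, NOP14, NOP16, NOP19, RRP8, RRP14 and UTP14. With equal culture numbers paired, 3 of them were called between media in the reference: NOP4 (adjusted p = 0.0230), RRP8 (adjusted p = 0.0492) and NOP19 (adjusted p = 0.0455). Several of them had changes as large as called genes but with wider errors. NOP14 in C-lim read 6.78, 6.32 and 6.59 in the reference and 7.30, 6.70 and 7.17 in snf1Δ, a difference of 0.49 ± 0.23 (SE, adjusted p = 0.0710). NOP19, a small-subunit processome protein, read 7.24, 6.60 and 7.07 in C-lim and 7.56, 7.10 and 7.64 in N-lim in the reference, a difference of 0.47 ± 0.22 (SE, adjusted p = 0.0682). RRP40, with small errors, changed by at most 0.17 ± 0.077 (SE) between media in the reference and by 0.056 ± 0.077 (SE) in snf1Δ.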

How the data were processed

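The authors deposited 1 table of log2 probe-set values; the submitters' processing notes name RMA and affy, with no version and without saying which arrays were normalized together. Cultures were aerobic chemostats, and cells were harvested at steady state, per the labels' protocols. Of 5716 probe sets, 5498 had 1 gene in the platform table and 218 were unnamed and left out. The brightest probe set was kept for 47 genes with several, which left 5449 genes, and 12 symbols were updated from RefSeq (R64).

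The members and the lists of roles, other factors and regulators were chosen with earlier results of these data known. A limma 3.58.1 model (R 4.3.3) of all 24 arrays held 1 mean per group, with 16 residual degrees of freedom and a prior of 1.71, and gave 19 comparisons, each adjusted by Benjamini-Hochberg over all genes at 0.05. Group means under log2 3 are called the floor, a level set after values were seen. No depth exists for arrays, and 3 arrays a group limit the precision.

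Members were named by a rule. In each comparison of media, or of a strain with the reference, it took up to 5 members each way. These had the largest change past the threshold and no overlap between arrays. In other comparisons it took up to 3. It also took the largest change per role, the brightest and dimmest members, and every member of a count of 5 or fewer. For non-members it took all regulators and up to 4 of each other list, and the text names only some of these. Other members named, among them NOC2, NOP14, NOP19 and RRP40, were chosen after their values were seen. Alternatives were array medians subtracted, quantile normalization repeated, genes under the 25th percentile left out, probe sets averaged, a trended robust prior, a fit of the compared groups alone, a replicate block, and each array left out in turn. The fit was tested on simulated data in which each gene was drawn independently. The simulation lacked the shared movement of the 63 genes, so it does not bear on counts of members.

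Deviations of same-numbered cultures correlated over 0.1 in every pair between media in the reference (0.23, 0.37 and 0.29), the same in snf1Δtor1Δ (0.14, 0.20 and 0.12), and between snf1Δ and reference cultures in N-lim (0.17, 0.28 and 0.27). The numbers were read as pairs there and nowhere else, a choice made from these correlations and not from the labels. Reference C-lim cultures also correlated over 0.1 with same-numbered N-lim cultures of snf1Δ (0.26, 0.39 and 0.27) and tor1Δ (0.23, 0.40 and 0.25). Those groups were not set directly against each other. Culture 09 of tor1Δ in C-lim correlated at 0.44 with that of the reference in C-lim and at 0.20 with that of tor1Δ in N-lim. Of all 33 same-numbered pairs, 22 correlated over 0.1. Cultures 10 and 11 of snf1Δ in C-lim correlated negatively with those of the reference in C-lim (-0.29 and -0.30) and N-lim (-0.26 and -0.19). With those of snf1Δ in N-lim they correlated at -0.21 and -0.29. Raw scanner files, scan dates and array batches were not used here, and no sequence is printed.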

Additional observations from a re-analysis of the deposited data

Results flagged for a closer look

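Groups of 3 arrays were not screened for single high or low arrays. The results below are those where the change of a strain against the reference differed between the media by limma's interaction test. A positive value means a larger change in N-lim, in log2 units. In snf1Δ the difference was 0.58 for NOC4, -0.63 for NOC3, -0.52 for RRP43, -0.51 for RRP3, -0.48 for UTP6, -0.43 for RRP42, -0.41 for UTP30 and -0.37 for RRP45. In snf1Δtor1Δ it was 0.86 for NOC4, 0.48 for RIX7, 0.43 for UTP23, 0.39 for RRP12, 0.36 for NOP6, 0.34 for ENP1 and 0.17 for RRP6. It was -0.56 for NOC3, -0.48 for RRP43, -0.44 for RRP3 and -0.32 for RRP42. The RRP6 call was lost with equal culture numbers paired (adjusted p = 0.0645), without dim genes (adjusted p = 0.0751), with the trended robust prior (adjusted p = 0.0892) and with the compared groups alone in the fit (adjusted p = 0.139). It was also lost without any 1 of reference C-lim cultures 10 and 11, reference N-lim culture 10, the 3 snf1Δtor1Δ C-lim cultures and snf1Δtor1Δ N-lim cultures 01 and 03. The NOC3, RRP3, RRP42 and RRP43 differences were negative in both strains and that of NOC4 was positive in both; the 2 tests share the reference arrays.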

How the results depend on the processing

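Results that rest on few arrays are limited most. Only 3 arrays a group were made, the 63 genes varied together between cultures of one group, and the tor1Δ cultures 07 and 08 in C-lim lay far apart. No array batch was examined. Signals were compared within a probe set alone. A member that missed the threshold is not shown to be unchanged. The causes of the shifts below were not tested.

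With array medians subtracted, 4 genes were called between snf1Δtor1Δ and snf1Δ in C-lim (2 as reported) and 11 between snf1Δtor1Δ and tor1Δ in N-lim (25). With the compared groups alone in the fit, fewer arrays set the spread: 20 were called in snf1Δ in C-lim (32) and 3 between snf1Δtor1Δ and snf1Δ in N-lim (1), where 0 were called without dim genes and 0 with the trended robust prior. A replicate block, used where the numbers were not read as pairs, gave 8 calls between media in tor1Δ (17). Where they were read as pairs, the block gave 7 higher and 21 lower between media in the reference, 7 and 11 in snf1Δtor1Δ, and 30 and 0 between snf1Δ and reference cultures in N-lim. There and in the difference between media for snf1Δtor1Δ it ended the calls of RRP7 and UTP22 in the reference, of RRP7 and RRP42 in snf1Δtor1Δ and of RRP6, and it added NOP4, NOP13, NOP19, NOP56, RIX7, RRP8 and UTP23 in the reference, NOP1 and NOP53 in snf1Δtor1Δ, NOP10 and ENP2 in snf1Δ, and UTP30 in the difference between media. It could not be fitted for snf1Δtor1Δ against other strains.

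With each array left out in turn, the calls between media ran from 18 to 27 in the reference, 10 to 20 in snf1Δ, 13 to 23 in tor1Δ and 13 to 21 in snf1Δtor1Δ. Against the reference they ran from 23 to 41 (C-lim) and 17 to 30 (N-lim) in snf1Δ, 0 to 1 and 0 to 0 in tor1Δ, and 16 to 32 and 26 to 38 in snf1Δtor1Δ. Between snf1Δtor1Δ and snf1Δ they ran from 0 to 5 in C-lim and 0 to 2 in N-lim, and between snf1Δtor1Δ and tor1Δ from 14 to 33 and 14 to 28. The 5 in C-lim came without reference culture 10, and 4 came without tor1Δ culture 07 or 08. The genetic interaction ran from 0 to 4 in C-lim and stayed at 0 in N-lim. The difference between media ran from 5 to 11 for snf1Δ and 7 to 12 for snf1Δtor1Δ, and stayed at 0 for tor1Δ. Single-gene results were tallied only for members that the rule named, each in the comparison that named it. Across the other alternatives they kept their direction and side of the threshold in 580 cases, lost the call in 29, gained it in 2 and reversed in 0. With arrays left out these counts were 2096, 85, 3 and 0. The rule mostly picked large changes in these same data, so the tally does not bear on other calls. Those of UTP4 and UTP9, for example, are not in it.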
